A study of Mus musculus with 6 samples.

Results

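The ephrin, semaphorin, Slit and netrin guidance genes are families of ligands and receptors through which cells attract or repel each other. They were taken by gene symbol: ephrins and Eph receptors, semaphorins of classes 3 to 7 with plexins and neuropilins, Slits with Robo receptors, and netrins 1 to 5 with Unc5 receptors, neogenin and Dcc. The symbols selected 70 of 32028 genes, 35 ligands and 35 receptors. Of these, 67 had a count above 0 in at least 1 clone and 53 had enough counts to be tested.

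Ephrins sit on the cell surface and bind Eph receptor tyrosine kinases on the neighbouring cell. Semaphorins bind plexins, and the secreted class 3 semaphorins mostly do so with neuropilins as co-receptors. Slits bind Robo receptors, while netrins bind Dcc, neogenin and the Unc5 receptors. All these receptors act on the cytoskeleton, and outside the nervous system they take part in the adhesion, contact repulsion and migration of fibroblasts and other cells.

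The libraries were poly(A) RNA of 6 clonal lines of mouse embryonic fibroblasts, cells grown out of embryos and here immortalized with the SV40 large T antigen. The knockout clones A4, A5 and A6 came from Macf1flox/flox mice and the het clones B5, C6 and F1 from Macf1flox/+ mice. Both genotypes were exposed overnight to AAV8-CMV-Cre, a virus that expresses Cre recombinase from the CMV promoter, and each line was raised from a single cell. Per the study's design text recombination was checked by sequencing, with the het clones described as heterozygous for the knockout allele, and all lines share the T antigen. Macf1 encodes a spectraplakin that joins actin filaments to microtubules. The number of embryos or parental cultures behind the clones is unknown. The p-values therefore set the difference between genotypes against variation among clones, which need not cover variation among embryos. In bulk RNA, fewer cells expressing a gene and less RNA per cell cannot be told apart.

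Library totals were 15661342 to 18209673 estimated counts. Macf1 fell, with 309, 363 and 322 CPM (counts scaled to library size) in knockout clones A4, A5 and A6, against 693, 696 and 579 CPM in het clones B5, C6 and F1 (log2 fold change -0.99, SE 0.13, edgeR adjusted p = 0.00307). The deleted exons themselves were not examined here. Of 12 fibroblast markers, 9 were tested, 6 fell and 0 rose in the knockout clones. Col1a1 averaged 7.40 ± 5.75 CPM in knockout clones and 1229 ± 245 CPM in het clones (SD, n = 3 each). Vim and Fn1 were abundant in both genotypes and did not pass. Lum had no count in any clone, Dcn and Thy1 had none in knockout clones, and neither exceeded 1.02 CPM in a het clone. The summed fibroblast markers were 5625 to 8146 CPM in knockout clones and 9503 to 12890 CPM in het clones. Vim and Fn1 were nearly all of this sum in knockout clones, at means of 2866 and 4269 CPM. They were most of it in het clones, at 2425 and 5774 CPM, so the sum hides the fall of the other markers. Markers of other cell types were low. Epithelial markers summed to 0.431 to 1.03 CPM in knockout clones and 16.1 to 56.7 CPM in het clones, nearly all of it Krt19, and neuronal markers to 14.5 to 20.0 CPM in knockout clones and 36.8 to 68.8 CPM in het clones, with Rbfox3 at 0. Glial and Schwann cell markers summed to 10.3 to 23.1 CPM in knockout clones and 6.34 to 7.02 CPM in het clones, mostly Erbb3, with Foxd3 at 0. Endothelial markers (10.8 to 14.0 CPM in knockout clones, 6.10 to 11.6 CPM in het clones, Emcn and Cldn5 at 0), immune markers (5.25 to 5.95 and 4.91 to 6.40 CPM, Adgre1 and Cd3e at 0) and skeletal muscle markers (2.08 to 4.18 and 0.658 to 1.46 CPM, Myod1, Myog, Myf5, Actc1 and Pax7 at 0) made up the rest. The part of these marker differences in the guidance gene results was not tested.

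In the fit across all genes, 13 of the 53 tested guidance genes passed an adjusted p of 0.05 (edgeR quasi-likelihood test, Benjamini-Hochberg over 12745 genes). Slit1, Efnb1, Neo1, Unc5b, Plxnb2 and Plxnd1 rose in knockout clones. Slit2, Epha3, Ephb2, Ephb3, Sema3f, Sema4f and Plxna3 fell. The 13 are 24.5% of the tested members, against 28.1% of all tested genes. The 6 that rose are 11.3%, against 13.9% of all genes, and the 7 that fell are 13.2%, against 14.2%. Clones of the genotypes did not overlap for 19 members, 35.8%, against 47.5% of all genes. These shares lay near or under those of all genes. The median log2 fold change of the members was -0.22, and that of all genes -0.0006. Among ligands 2 rose and 3 fell of 29 tested (6.9 and 10.3%), and among receptors 4 rose and 4 fell of 24 (16.7% each). Of the changes past the threshold, 5 of the 6 increases and 6 of the 7 decreases were at least 2-fold. Over all genes, 476 of 1771 increases and 1056 of 1814 decreases were. In a fit on transcripts, 5 of 112 member transcripts rose and 19 fell (edgeR), against 4.15% and 3.77% of 34761 transcripts. Of the 19, 10 belong to Slit2 and passed the filter through the het clones. A transcript of each of Ephb3, Sema4c, Ephb2 and Epha3, with at most 0.123 CPM in any knockout clone, also passed it that way. Of the 5 that rose, the Slit1 transcript had 0 CPM in every het clone and passed the filter through the knockout clones. The 19 became 3 with limma-voom and 1 without C6.

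**Figure D1:**
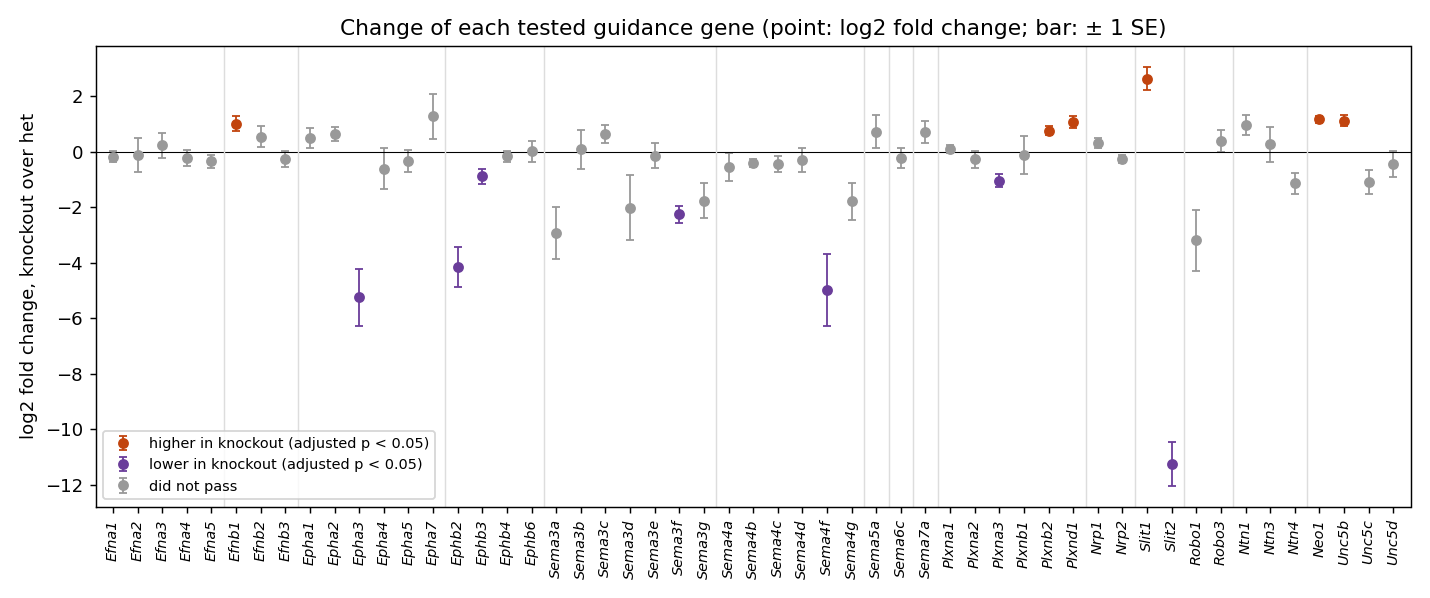
Log2 fold change (knockout over het) of each of the 53 tested guidance genes, ordered by family, with bars of 1 SE; colours mark the 6 genes that rose, the 7 that fell and the 40 that did not pass. Most points lie near 0, Slit2 lies at -11.25, and Slit1 is the highest at 2.63.

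The sequences before the starts of 4 genes are shown, since Slit2 and Ephb2 fell and Neo1 and Unc5b rose under every setting tried. They are the 250 bases upstream of the RefSeq start on GRCm38.p6, 5′ to 3′ on the strand of the gene, with each CG dinucleotide in capitals. The windows are chr5:47982905-47983154 (plus strand) for Slit2, chr4:136836013-136836262 (minus) for Ephb2, chr9:59036442-59036691 (minus) for Neo1 and chr10:60831582-60831831 (minus) for Unc5b.
Slit2: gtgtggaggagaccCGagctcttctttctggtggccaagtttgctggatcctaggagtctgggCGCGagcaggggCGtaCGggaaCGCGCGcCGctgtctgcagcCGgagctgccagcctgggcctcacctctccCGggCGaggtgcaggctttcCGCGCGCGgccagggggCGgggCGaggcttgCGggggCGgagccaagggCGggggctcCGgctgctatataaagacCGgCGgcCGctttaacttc
Ephb2: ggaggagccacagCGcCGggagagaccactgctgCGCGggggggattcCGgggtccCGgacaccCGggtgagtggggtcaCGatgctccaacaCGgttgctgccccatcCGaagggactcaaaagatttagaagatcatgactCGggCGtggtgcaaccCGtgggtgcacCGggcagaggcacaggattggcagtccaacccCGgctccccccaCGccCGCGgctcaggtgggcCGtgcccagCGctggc
Neo1: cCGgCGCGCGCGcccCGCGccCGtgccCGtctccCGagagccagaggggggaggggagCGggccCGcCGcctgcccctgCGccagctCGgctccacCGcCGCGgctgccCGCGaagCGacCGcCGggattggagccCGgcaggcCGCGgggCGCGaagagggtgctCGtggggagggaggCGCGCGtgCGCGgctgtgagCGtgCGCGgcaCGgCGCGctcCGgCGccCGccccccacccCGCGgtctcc
Unc5b: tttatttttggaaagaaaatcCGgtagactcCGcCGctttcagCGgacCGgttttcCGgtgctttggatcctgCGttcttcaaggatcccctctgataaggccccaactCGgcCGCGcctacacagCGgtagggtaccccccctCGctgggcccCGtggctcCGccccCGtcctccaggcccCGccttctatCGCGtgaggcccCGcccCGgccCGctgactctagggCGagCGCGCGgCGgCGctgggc
The Slit2 window held 25 CG dinucleotides, more than 89.3% of the 32851 mouse windows of this length, and that of Ephb2 held 20, more than 82.1%. The windows of Neo1 and Unc5b held 45 and 27, more than 99.6% and 91.4% of all windows. The median over all windows was 6. Over the 60 members with a window, taking the richest of each, it was 17, so windows rich in CG were common among the guidance genes. The letters TATAAA, searched on both strands, stand near the 3′ end of the Slit2 window and were found in 12.4% of all windows and in 2 of the 60 members with a window (Slit2 and Efnb2). Taking the richest window of each member, the 5 with a window that rose held 13 to 45 CG, the 6 that fell 4 to 25, and the 35 that did not pass 2 to 39, so the ranges overlapped. CG reads the same on both strands. Efnb3, Slit1, Ntn1, Sema6a, Plxna4, Unc5d, Plxna1, Dcc, Sema3f and Sema3b had no entry.

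Slit2 had the largest fold change of the 53 tested members. The gene (ENSMUSG00000031558, chromosome 5, 47983138 to 48307733, plus strand, GRCm38) encodes a secreted repellent that binds Robo receptors, and had 0.122, 0 and 0.103 CPM in knockout clones A4, A5 and A6, against 100, 196 and 321 CPM in het clones B5, C6 and F1. The knockout clones held 4 counts in all and the het clones 10270. Slit2 was thus one of the abundant guidance ligands of the het clones and all but missing from every knockout clone. Its log2 fold change was -11.25 (SE 0.78, edgeR adjusted p = 0.000576), and the pooled counts put it 2645-fold lower, with an exact 95% interval of 1033-fold to 9710-fold that covers counting error only. The most abundant transcript, the protein-coding ENSMUST00000174313 with 52.2% of the counts of the gene, had no count in knockout clones, against 46.9, 113 and 161 CPM in het clones B5, C6 and F1. In the authors' deposited table the log2 fold change of this transcript is -13.83, with an FDR of 4.55e-58. The transcript fit made here on the same clones gave -13.81 with a much larger adjusted p of 0.012 (edgeR). Of the 10 Slit2 transcripts tested, 10 passed in that fit, 0 with limma-voom and 1 without C6.

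The other Slits were scarce. Slit1, best known from the nervous system, had 1.04, 0.984 and 1.40 CPM in knockout clones A4, A5 and A6, against 0.239, 0.169 and 0.125 CPM in het clones B5, C6 and F1. It rose by 2.63 on the log2 scale (SE 0.42, edgeR adjusted p = 0.00575) without approaching the level at which Slit2 stood in het clones. Slit3 had no count in knockout clones and 1.32, 0.169 and 0.690 CPM in het clones B5, C6 and F1. With 36 counts in het clones it was at least 12.4-fold lower in knockout clones (a floor of 3 counts over the group), but it stayed under the filter on low counts. Without that filter its adjusted p was 0.0197 (edgeR).

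Neither of the 2 Robo receptors tested passed. Robo1 (chromosome 16, 72308306 to 73046095, plus strand) had 0.366, 0.615 and 6.83 CPM in knockout clones A4, A5 and A6, against 13.1, 37.8 and 22.4 CPM in het clones B5, C6 and F1. The genotypes did not overlap, but clone A6 stood well above the other knockout clones, and the log2 fold change of -3.20 (SE 1.09) had an edgeR adjusted p of 0.0781. Without A6 it was -5.62 (edgeR adjusted p = 0.00649). Robo2, on the same chromosome (73891839 to 74411825, minus strand), had no count in any knockout clone, against 0.239, 7.59 and 17.3 CPM in het clones B5, C6 and F1. Pooled over clones it was at least 142-fold lower in knockout clones. Het clone B5, however, had only 4 counts of it, the gene failed the filter, and without the filter its adjusted p was 0.208 (edgeR), so nearly all of its counts came from C6 and F1. Robo3, a divergent family member, stayed between 0.359 and 0.675 CPM in all clones (edgeR adjusted p = 0.518), and Robo4, the endothelial Robo, had no count in any clone.

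Scaled by transcript length (TPM), the Slits and Robos together summed to 1.99, 1.60 and 3.27 TPM in knockout clones A4, A5 and A6, against 49.3, 117 and 188 TPM in het clones B5, C6 and F1. Slit2 made up 80.1 to 90.3% of that sum in het clones. In knockout clones it made up at most 2.57%, and the little that remained was mostly Robo3 and Slit1 in A4 and A5 and Robo1 in A6.

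**Figure D2:**
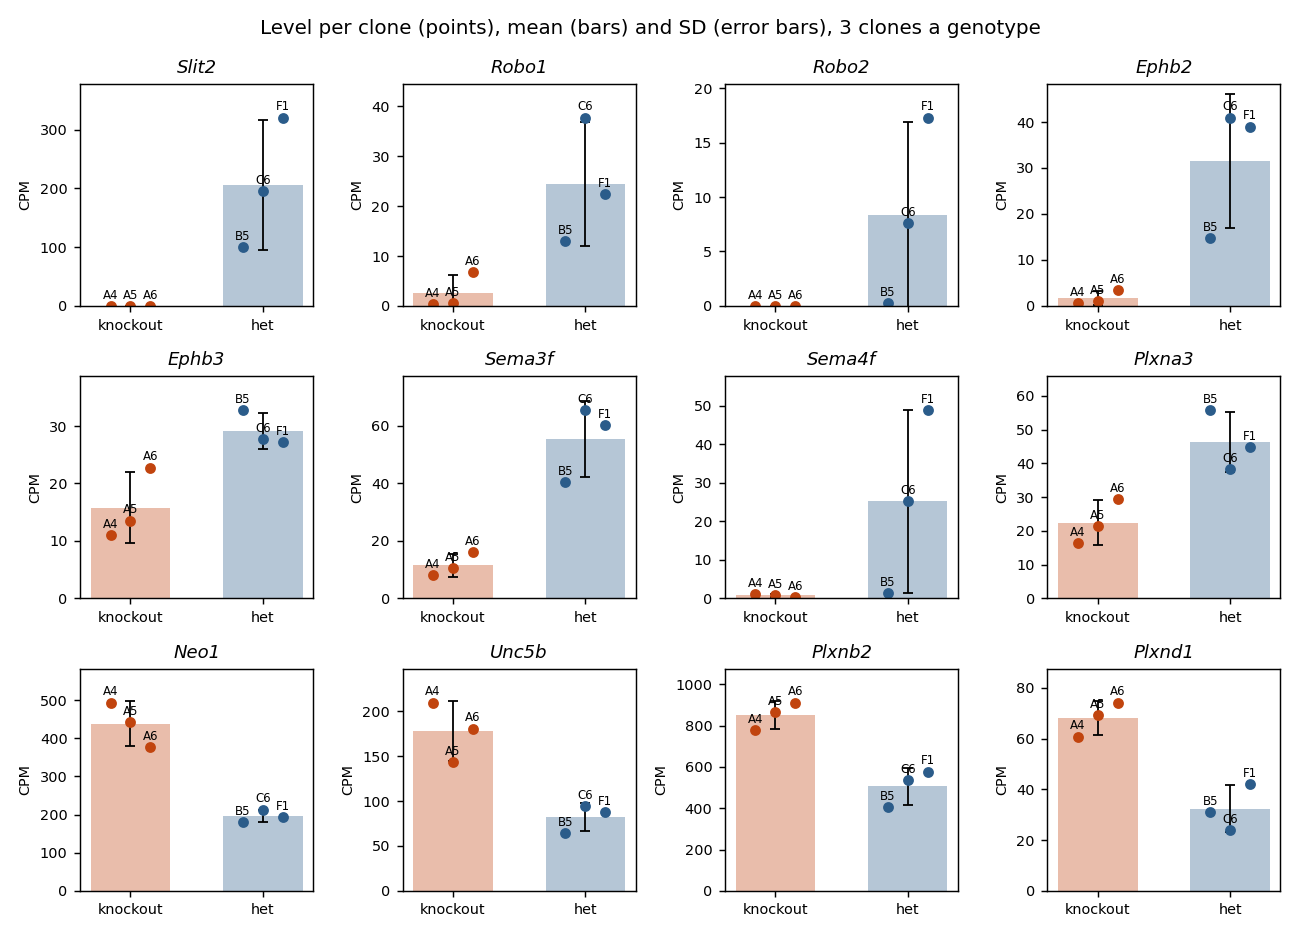
Level in CPM (vertical axes, from 0, linear, one scale per gene) of 12 guidance genes in 3 knockout clones (left, orange) and 3 het clones (right, blue). Points are clones, bars are means and error bars are SD, cut at 0 for Robo1 in knockout clones and Robo2 in het clones. Slit2, Ephb2 and Sema3f were low in all knockout clones, Robo2 and Sema4f were low in het clone B5 as well, and Neo1, Unc5b, Plxnb2 and Plxnd1 were higher in every knockout clone than in any het clone.

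Both abundant netrin receptors rose in knockout clones, 2 of 4 tested (50%, against 13.9% of all genes). Neo1 (ENSMUSG00000032340, chromosome 9, 58874687 to 59036441, minus strand) encodes neogenin, a receptor for netrins and for repulsive guidance molecules. It measured 494, 443 and 378 CPM in knockout clones A4, A5 and A6, against 181, 213 and 194 CPM in het clones B5, C6 and F1. Every knockout clone stood above every het clone, and the log2 fold change was 1.16 (SE 0.13, edgeR adjusted p = 0.00208). Unc5b (chromosome 10, 60762593 to 60831581, minus strand), which encodes a netrin receptor that mediates repulsion, measured 209.9, 144 and 181 CPM in knockout clones A4, A5 and A6, against 64.7, 94.1 and 87.7 CPM in het clones B5, C6 and F1. Again the genotypes did not overlap (log2 fold change 1.12, SE 0.19, edgeR adjusted p = 0.00705).

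The remaining netrin receptors were far lower. Unc5c, a relative of Unc5b, had 4.89, 5.29 and 11.3 CPM in knockout clones A4, A5 and A6, against 10.7, 22.8 and 12.7 CPM in het clones B5, C6 and F1. Clone A6 overlapped the het clones, and the log2 fold change of -1.10 (SE 0.43) did not pass (edgeR adjusted p = 0.0994). Unc5d lay between 0.366 and 1.23 CPM in knockout clones and 0.898 and 1.19 CPM in het clones (log2 fold change -0.46, SE 0.47, edgeR adjusted p = 0.501). Unc5a had no count in knockout clones and at most 0.251 CPM in a het clone, and Dcc, the classical netrin receptor of neurons, was listed above 0 in het clone C6 alone. Per length, netrin receptors summed to 186, 166 and 180 TPM in knockout clones A4, A5 and A6, against 69.5, 95.9 and 87.8 TPM in het clones B5, C6 and F1. Neo1 held 61.2 to 70.2% of the sum in knockout clones and 59.8 to 65.9% in het clones. Unc5c held 0.705 to 1.91% in knockout clones and 4.23 to 6.55% in het clones.

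Among the netrins themselves nothing passed. Ntn1, the secreted founder of the family, had 18.4, 22.9 and 29.8 CPM in knockout clones A4, A5 and A6, against 7.30, 19.3 and 9.91 CPM in het clones B5, C6 and F1. Het clone C6 lay among the knockout clones, and the log2 fold change was 0.96 (SE 0.38, edgeR adjusted p = 0.102). Ntn4, a netrin of basement membranes, had 7.69, 5.72 and 9.41 CPM in knockout clones A4, A5 and A6, against 13.4, 26.8 and 10.5 CPM in het clones B5, C6 and F1. Its genotypes did not overlap, but the log2 fold change of -1.15 (SE 0.38) did not pass either (edgeR adjusted p = 0.0649). Per length, Ntn1 formed 59.4 to 70.4% of the netrin sum in knockout clones and 25.3 to 36.1% in het clones, with Ntn4 as most of the rest. Ntn3 averaged 0.913 ± 0.734 CPM in knockout clones and 0.773 ± 0.256 CPM in het clones, and shares 89 bases of exon with its neighbour Tbc1d24 on the same strand. Ntn5 had no count.

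In the ephrin and Eph families 1 ligand rose and 3 receptors fell, of 18 genes tested. These are 5.56 and 16.7%, against 13.9 and 14.2% of all genes. Ephb2 (ENSMUSG00000028664, chromosome 4, 136647539 to 136835988, minus strand), a receptor for B-class ephrins, had 0.611, 1.11 and 3.46 CPM in knockout clones A4, A5 and A6, against 14.7, 41.0 and 39.0 CPM in het clones B5, C6 and F1. Even the highest knockout clone was well under the lowest het clone, and the log2 fold change was -4.16 (SE 0.72, edgeR adjusted p = 0.00917). Ephb3, which shares several roles with Ephb2, had 11.1, 13.5 and 22.8 CPM in knockout clones A4, A5 and A6, against 32.8, 27.7 and 27.2 CPM in het clones B5, C6 and F1. Its decrease was smaller (log2 fold change -0.89, SE 0.27) and only just passed (edgeR adjusted p = 0.0477). Leaving out any clone other than A6 ended that call, as did library totals (0.0732), both FPKM scales (0.0578 and 0.0617), a test against a fold of 1.5 (0.341) and its most abundant transcript alone (0.167). Epha3, an A-class receptor, fell too, at low levels of 0, 0.0615 and 0.0517 CPM in knockout clones A4, A5 and A6, against 1.08, 0.618 and 3.51 CPM in het clones B5, C6 and F1 (edgeR adjusted p = 0.0115, and 0.051 without A5). With 2 counts in knockout clones and 85 in het clones it was 43.8-fold lower, with an exact 95% counting interval of 11.8-fold to 367-fold. Epha3 met the count filter only through the het clones.

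Most Eph signal in both genotypes came from Epha2, a receptor for A-class ephrins that epithelial and mesenchymal cells express widely. It measured 346, 295 and 175 CPM in knockout clones A4, A5 and A6, against 157, 195 and 171 CPM in het clones B5, C6 and F1. A4 and A5 were above all het clones while A6 lay among them (log2 fold change 0.64, SE 0.25, edgeR adjusted p = 0.0955, and 0.0086 without A6). Ephb4, a receptor of vessels and mesenchyme that prefers Efnb2, had 50.3, 55.9 and 78.2 CPM in knockout clones A4, A5 and A6, against 62.3, 63.6 and 81.5 CPM in het clones B5, C6 and F1, with overlapping genotypes (log2 fold change -0.17, SE 0.19, edgeR adjusted p = 0.55). Ephb6, which lacks kinase activity, had 5.98, 8.61 and 14.6 CPM in knockout clones A4, A5 and A6, against 10.3, 6.58 and 12.2 CPM in het clones B5, C6 and F1 (log2 fold change 0.01, SE 0.38, edgeR adjusted p = 0.987).

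Epha7 had 2.02, 1.78 and 4.76 CPM in knockout clones A4, A5 and A6, against 2.21, 0.169 and 1.19 CPM in het clones B5, C6 and F1, again overlapping (log2 fold change 1.26, SE 0.80, edgeR adjusted p = 0.275). Epha1, Epha4 and Epha5 averaged between 0.780 and 2.19 CPM in either genotype and did not pass; Epha1 shares 236 bases of exon with Zyx on the opposite strand. Epha8, Epha10 and Ephb1 had too few counts to test, and Epha6 had none. Per length, the Eph receptors summed to 194, 190.1 and 171 TPM in knockout clones A4, A5 and A6, against 144, 177 and 180.2 TPM in het clones B5, C6 and F1. Epha2 held 83.3, 78.4 and 58.4% of that sum in knockout clones A4, A5 and A6, against 57.3, 59.8 and 51.9% in het clones B5, C6 and F1. Ephb2 held at most 0.795% in a knockout clone, against 4.03 to 10.8% in het clones.

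Of 8 ephrins tested, 1 rose and 0 fell (12.5 and 0%, against 13.9 and 14.2% of all genes). Efnb1, an X-linked transmembrane ephrin (99136130 to 99148991, plus strand), had 5.98, 4.92 and 5.22 CPM in knockout clones A4, A5 and A6, against 3.11, 2.19 and 2.70 CPM in het clones B5, C6 and F1. All knockout clones exceeded all het clones (log2 fold change 1.01, SE 0.26, edgeR adjusted p = 0.0275), but the call was lost when A4, A5, C6 or F1 was left out. Efnb2, the most abundant ephrin, had 165, 140.4 and 87.7 CPM in knockout clones A4, A5 and A6, against 48.6, 123 and 99.7 CPM in het clones B5, C6 and F1. The overlap came from A6 among the knockout clones and from C6 and F1 among the het clones (log2 fold change 0.53, SE 0.38, edgeR adjusted p = 0.333). Efnb3 had 1.89, 2.58 and 2.84 CPM in knockout clones A4, A5 and A6, against 2.75, 3.09 and 3.01 CPM in het clones B5, C6 and F1 (log2 fold change -0.27, SE 0.28, edgeR adjusted p = 0.51).

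Of the lipid-anchored A-class ephrins none passed. Efna1 had 21.9, 19.4 and 31.3 CPM in knockout clones A4, A5 and A6, against 26.2, 27.4 and 28.8 CPM in het clones B5, C6 and F1 (log2 fold change -0.18, SE 0.19, edgeR adjusted p = 0.504). Efna5 had 17.6, 14.95 and 16.1 CPM in knockout clones A4, A5 and A6, against 13.9, 20.7 and 27.5 CPM in het clones B5, C6 and F1 (log2 fold change -0.35, SE 0.25, edgeR adjusted p = 0.317). Both sets of clones overlapped. Efna2, Efna3 and Efna4 averaged 1.87, 4.73 and 9.27 CPM in knockout clones and 2.06, 4.07 and 10.8 CPM in het clones. The ephrin sum per length was 114, 115 and 134 TPM in knockout clones A4, A5 and A6, against 81.0, 129 and 132 TPM in het clones B5, C6 and F1.

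Semaphorins summed to 98.1, 106 and 118 TPM in knockout clones A4, A5 and A6, against 220, 240.1 and 222 TPM in het clones B5, C6 and F1. Of 16 tested, 0 rose and 2 fell (12.5%, against 14.2% of all genes). Sema3f (ENSMUSG00000034684, chromosome 9, 107681500 to 107710475, minus strand), a secreted ligand that acts mainly through Nrp2 and A-class plexins, had 8.12, 10.5 and 16.0 CPM in knockout clones A4, A5 and A6, against 40.3, 65.5 and 60.3 CPM in het clones B5, C6 and F1. The genotypes were well apart, at a log2 fold change of -2.26 (SE 0.30, edgeR adjusted p = 0.0033). Sema4f, a transmembrane semaphorin, had 1.16, 0.861 and 0.362 CPM in knockout clones A4, A5 and A6, against 1.44, 25.2 and 48.9 CPM in het clones B5, C6 and F1. Het clone B5 was near the knockout clones, so the log2 fold change of -4.99 (SE 1.31, edgeR adjusted p = 0.0376) rested on C6 and F1. The call ended when any clone other than B5 was left out (adjusted p 0.0646 to 0.129) and with no filter (0.107), limma-voom (0.284), a test against a fold of 1.5 (0.0905) or its most abundant transcript alone (0.068).

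**Figure D3:**
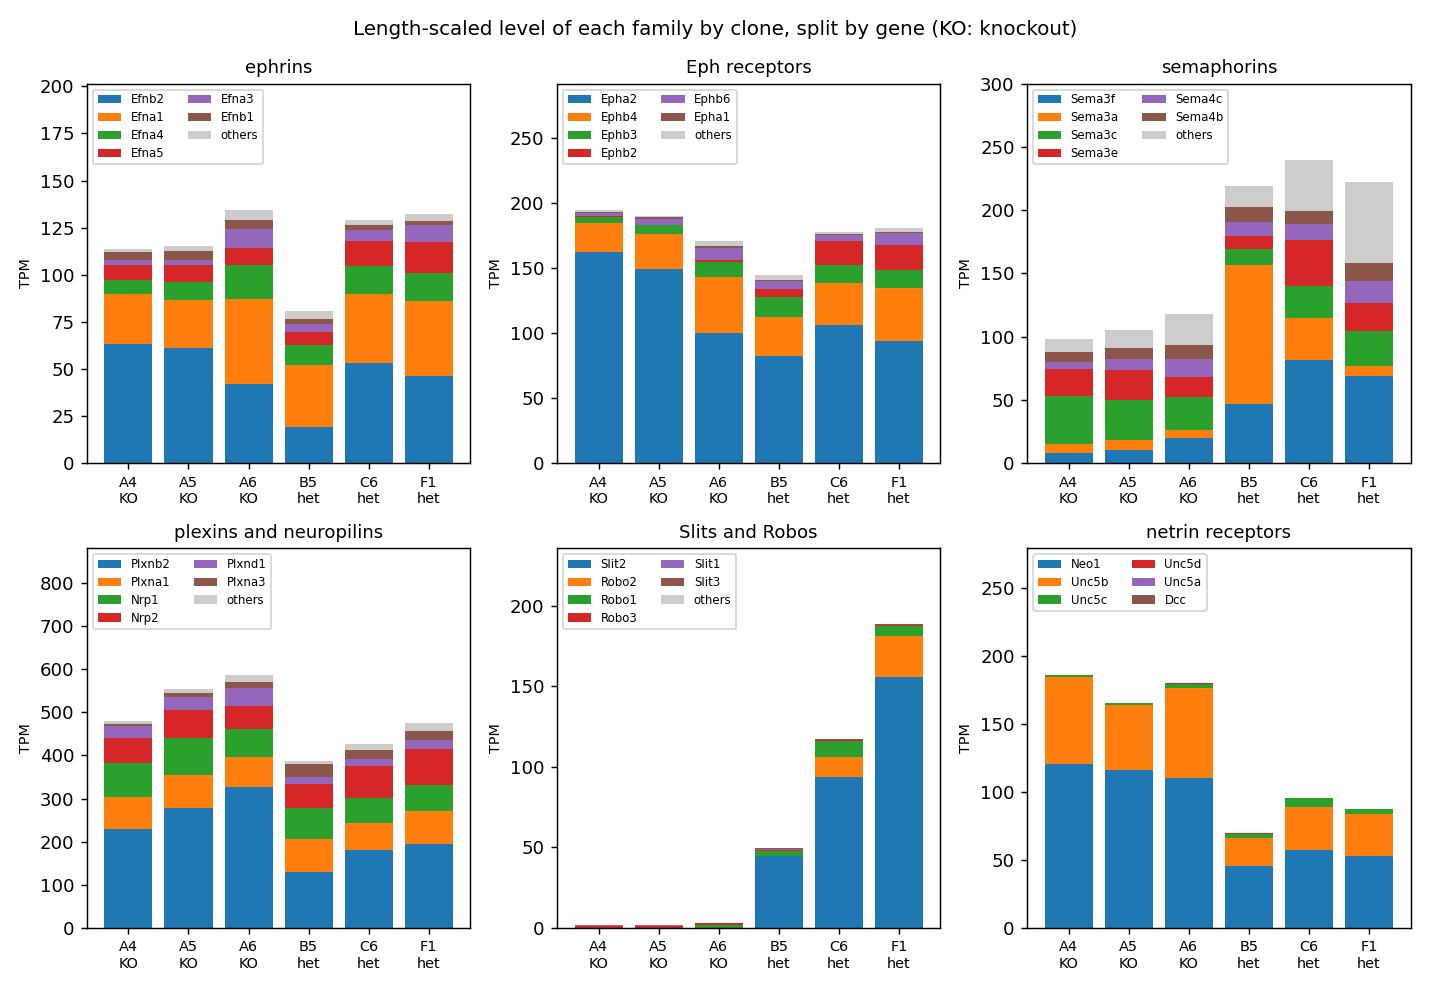
Summed length-scaled level (TPM, from 0, linear) of 6 guidance families in knockout clones A4, A5 and A6 (left bars) and het clones B5, C6 and F1 (right bars), split by gene. Semaphorins and the Slit and Robo genes were lower in every knockout clone and netrin receptors higher, while ephrins and Eph receptors overlapped between genotypes; clone B5 stands out by its share of Sema3a.

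Other secreted semaphorins varied widely between het clones. Sema3a, the prototype repellent of growing axons, had 14.2, 13.4 and 9.88 CPM in knockout clones A4, A5 and A6, against 206, 62.0 and 15.2 CPM in het clones B5, C6 and F1. All het clones lay above all knockout clones, F1 by very little, and the log2 fold change of -2.92 (SE 0.94) did not pass (edgeR adjusted p = 0.0695). It did without F1 (0.0137). Sema3e, the ligand of Plxnd1, had 74.9, 74.5 and 43.8 CPM in knockout clones A4, A5 and A6, against 33.5, 113 and 67.0 CPM in het clones B5, C6 and F1. These overlapped throughout (log2 fold change -0.15, SE 0.45, edgeR adjusted p = 0.83). Sema3d had 3.18, 2.83 and 10.7 CPM in knockout clones A4, A5 and A6, against 1.26, 25.9 and 41.1 CPM in het clones B5, C6 and F1, so B5 was again with the knockout clones (edgeR adjusted p = 0.253). Sema3c was abundant at 68.5 ± 14.8 CPM in knockout clones and 44.5 ± 17.2 CPM in het clones, and Sema3b averaged 4.93 ± 1.45 and 4.67 ± 3.64 CPM. Sema3g, at 0.405 ± 0.276 CPM in knockout clones and 1.42 ± 0.715 CPM in het clones, did not pass (edgeR adjusted p = 0.077). The leading semaphorin therefore differed by clone: per length Sema3c held 38.6, 29.9 and 22.5% of the sum in knockout clones A4, A5 and A6, whereas Sema3a held 50.1% in het clone B5 and Sema3f 33.9 and 30.8% in het clones C6 and F1.

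Membrane-bound semaphorins other than Sema4f did not pass. Sema4b had 15.6, 17.96 and 18.4 CPM in knockout clones A4, A5 and A6, against 22.3, 20.3 and 25.7 CPM in het clones B5, C6 and F1. The genotypes did not overlap, but the difference was small (log2 fold change -0.40, SE 0.14, edgeR adjusted p = 0.0779). Sema4c, a ligand of Plxnb2, had 9.53, 13.2 and 19.8 CPM in knockout clones A4, A5 and A6, against 17.1, 17.0 and 24.5 CPM in het clones B5, C6 and F1, with A6 among the het clones (log2 fold change -0.46, SE 0.29, edgeR adjusted p = 0.274). Sema6c had 2.14, 3.32 and 5.17 CPM in knockout clones A4, A5 and A6, against 4.37, 3.54 and 4.52 CPM in het clones B5, C6 and F1 (log2 fold change -0.22, SE 0.36, edgeR adjusted p = 0.683).

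Sema5a had 1.04, 1.54 and 2.43 CPM in knockout clones A4, A5 and A6, against 0.299, 1.24 and 1.51 CPM in het clones B5, C6 and F1 (log2 fold change 0.72, SE 0.60, edgeR adjusted p = 0.406). Sema7a, which is anchored by lipid and signals through integrins and Plxnc1, had 0.855, 0.984 and 1.45 CPM in knockout clones A4, A5 and A6, against 0.838, 0.731 and 0.439 CPM in het clones B5, C6 and F1. It did not overlap between genotypes but did not pass (log2 fold change 0.71, SE 0.40, edgeR adjusted p = 0.23). Sema4a, Sema4d and Sema4g averaged 0.584, 5.07 and 0.663 CPM in knockout clones and 0.856, 6.27 and 2.35 CPM in het clones. Sema5b, Sema6a, Sema6b and Sema6d were under the filter, with no clone above 1.63 CPM.

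On the receptor side of the semaphorins 2 plexins rose and 1 fell, of 8 genes tested. These are 25 and 12.5%, against 13.9 and 14.2% of all genes. Plxnb2 (ENSMUSG00000036606, chromosome 15, 89155549 to 89180788, minus strand), a receptor for class 4 semaphorins, was the most abundant guidance gene, with 777, 864 and 912 CPM in knockout clones A4, A5 and A6, against 404, 534 and 578 CPM in het clones B5, C6 and F1. Each knockout clone exceeded each het clone (log2 fold change 0.75, SE 0.17, edgeR adjusted p = 0.0174), though the call was lost without A5 (adjusted p 0.0719) or C6 (0.0554). Plxnd1 (chromosome 6, 115954811 to 115995005, minus strand), the receptor for Sema3e in vessels, had 60.8, 69.2 and 74.2 CPM in knockout clones A4, A5 and A6, against 30.9, 24.1 and 42.2 CPM in het clones B5, C6 and F1. Again the clones did not overlap (log2 fold change 1.07, SE 0.21, edgeR adjusted p = 0.0111), and the call held whichever clone was left out. Plxna3 (X chromosome, 74329066 to 74344689, plus strand), which with Nrp2 forms a receptor for Sema3f, went the other way, with 16.3, 21.5 and 29.4 CPM in knockout clones A4, A5 and A6, against 55.8, 38.3 and 44.8 CPM in het clones B5, C6 and F1. It fell without overlap (log2 fold change -1.05, SE 0.24, edgeR adjusted p = 0.0198), and did not pass without A4, A5 or F1 (0.0509 to 0.0808).

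Neuropilins and the other tested plexins overlapped between genotypes and did not pass. Nrp1, a co-receptor for class 3 semaphorins and VEGF, had 158, 161 and 109 CPM in knockout clones A4, A5 and A6, against 137, 105 and 108 CPM in het clones B5, C6 and F1 (log2 fold change 0.29, SE 0.18, edgeR adjusted p = 0.263). Nrp2 had 207, 210.0 and 158 CPM in knockout clones A4, A5 and A6, against 194, 241 and 256 CPM in het clones B5, C6 and F1 (log2 fold change -0.27, SE 0.16, edgeR adjusted p = 0.242). Within Nrp2, the transcript ENSMUST00000114155 averaged 36.5 ± 6.40 CPM in knockout clones and 84.1 ± 37.4 CPM in het clones, while ENSMUST00000063594 averaged 110.4 ± 12.9 and 98.9 ± 8.08 CPM; neither passed in the transcript fit (edgeR adjusted p = 0.128 and 0.322). Plxna1, a main partner of neuropilins, had 287, 293 and 227 CPM in knockout clones A4, A5 and A6, against 265, 214 and 270.1 CPM in het clones B5, C6 and F1 (log2 fold change 0.11, SE 0.15, edgeR adjusted p = 0.618). Plxna2 had 33.6, 37.5 and 27.3 CPM in knockout clones A4, A5 and A6, against 22.3, 44.3 and 52.7 CPM in het clones B5, C6 and F1, in both directions from the knockout range (log2 fold change -0.28, SE 0.31, edgeR adjusted p = 0.536).

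Plxnb1 had 8.06, 6.71 and 27.1 CPM in knockout clones A4, A5 and A6, against 5.98, 15.7 and 23.9 CPM in het clones B5, C6 and F1, and so varied more within genotypes than between them. Plxna4, Plxnb3 and Plxnc1 had at most 0.414 CPM in any clone. Plexins and neuropilins summed to 481, 554 and 587 TPM in knockout clones A4, A5 and A6, against 388, 428 and 476 TPM in het clones B5, C6 and F1. Plxnb2 supplied 47.5 to 55.6% of that sum in knockout clones and 33.1 to 42.4% in het clones.

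Clones of a genotype differed in these genes. Across the 53 tested members, log2(CPM + 0.5) correlated at 0.994 between A4 and A5, at 0.963 and 0.969 between A6 and these clones, at 0.973 between C6 and F1, at 0.909 and 0.882 between B5 and these clones, and at 0.766 to 0.819 between genotypes; these are correlations across genes, which are not independent replicates. A6 was the highest knockout clone for 35 of 53 members, and B5 the lowest het clone for 32. The same was not counted over all genes, so these counts do not tell a trait of the guidance genes from one of the whole library. Without A6, 18 of 57 members passed, 7 higher and 11 lower (31.6%, against 27.5% of all genes, edgeR). Without B5, 18 of 56 passed, 6 higher and 12 lower (32.1%, against 29.1% of all genes). Robo1, Epha2, Unc5c, Efna1, Sema3g and Sema4g passed without A6, and Robo2, Sema3d, Sema3g, Sema6a, Plxna2 and Efna5 passed without B5. Without A5, 7 of 57 passed (12.3%, against 11.8% of all genes).

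**Figure D4:**
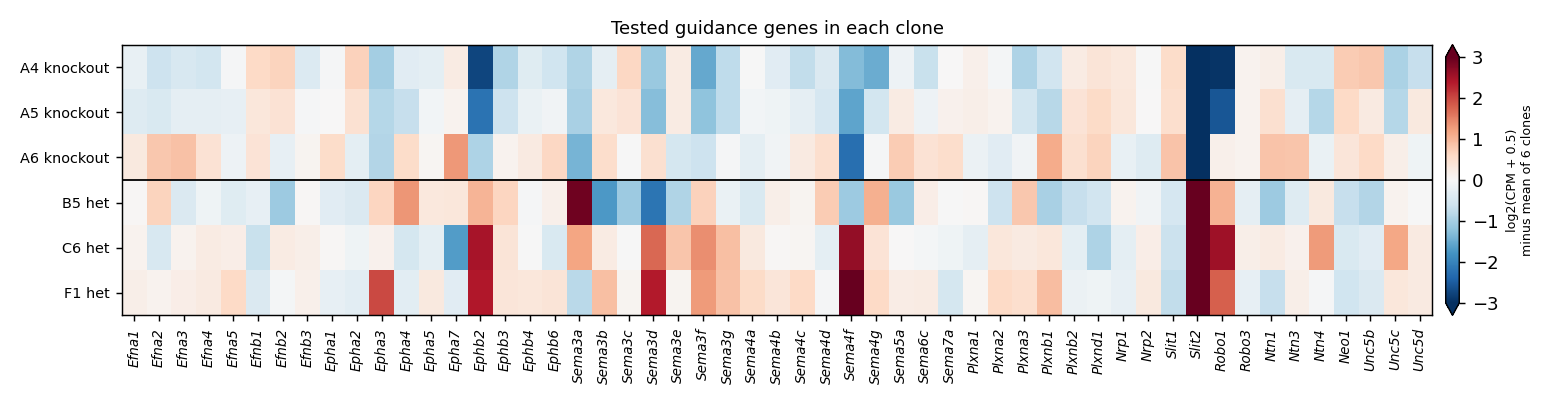
Level of the 53 tested guidance genes in each clone as log2(CPM + 0.5) minus the mean of the 6 clones (red higher, blue lower, colours capped at 3 in either direction), with knockout clones above the line and het clones under it. A4 and A5 look alike, A6 departs from them at Robo1, Plxnb1 and Sema3d, and B5 departs from C6 and F1 at Sema3a, Sema3d and Sema4f.

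Other genes of the same pathways were counted from 2 lists. Of 45 co-receptors and further ligands, 30 were tested, 4 rose and 6 fell (13.3 and 20.0%), and the median log2 fold change was -0.0024. Gpc1, a glypican that binds Slits, averaged 236 ± 21.1 CPM in knockout clones and 88.7 ± 8.35 CPM in het clones (log2 fold change 1.41, SE 0.11, edgeR adjusted p = 0.000576). Flrt1, of a family that binds Unc5 receptors, averaged 0.477 ± 0.3602 CPM in knockout clones and 14.5 ± 7.79 CPM in het clones (-4.87, SE 0.70, edgeR adjusted p = 0.00442). Flrt1 met the count filter through the het clones. Cdon, a surface relative of the Robo receptors that associates with neogenin, averaged 40.2 ± 7.69 CPM in knockout clones and 106 ± 22.0 CPM in het clones (-1.40, SE 0.20, adjusted p = 0.00402). Figf, which encodes a VEGF that binds Nrp2, averaged 4.90 ± 1.43 CPM in knockout clones and 36.6 ± 13.0 CPM in het clones (-2.90, SE 0.34, adjusted p = 0.00223).

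Of 80 intracellular effectors of these receptors, 73 were tested, 7 rose and 11 fell (9.59 and 15.1%), and the median log2 fold change was -0.04. Over all genes 13.9% rose and 14.2% fell. More of the co-receptor list fell (20.0%) and fewer of the effectors rose (9.59%), while the other shares were near those of all genes. These differences were not tested. Grb10, an adaptor of receptor tyrosine kinases, had 0.257 ± 0.202 CPM in knockout clones and 358 ± 32.5 CPM in het clones (log2 fold change -10.35, SE 0.37, edgeR adjusted p = 3.14e-05). With at most 0.465 CPM in a knockout clone, Grb10 met the count filter only through the het clones. Mical1, an oxidoreductase that takes semaphorin and plexin signals to actin filaments, had 1.68 ± 1.13 CPM in knockout clones and 47.6 ± 13.2 CPM in het clones (-4.80, SE 0.48, adjusted p = 0.0015). Ablim1, an actin-binding protein linked to netrin signalling in worms, had 13.2 ± 4.61 CPM in knockout clones and 98.9 ± 20.9 CPM in het clones (-2.91, SE 0.29, adjusted p = 0.00133). Srgap3, a signalling protein of the Slit and Robo pathway, had 33.5 ± 6.08 CPM in knockout clones and 86.2 ± 12.3 CPM in het clones (-1.37, SE 0.17, adjusted p = 0.00271).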

How the data were processed

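Members and pathway lists were chosen with earlier results of these data known. Build GRCm38.p4, Trimmomatic 0.36, kallisto 0.42.5 and edgeR are listed, per the submitters' processing notes. The kit was stranded, per the labels' protocols, and the quantification's strand setting was not given in the sources used here. The authors deposited estimated counts for 96626 transcripts, FPKM values for 24799 transcripts, and a comparison with a log2 fold change and p-values per transcript. That comparison does not name its direction; 97.5% of its signs matched knockout over het.

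Estimated counts were summed per gene (GENCODE M21; 1153 transcripts without a gene, 0.0174 to 0.0278% of counts, were left out) and rounded. Genes passing filterByExpr (count minimum 10, total 15) were scaled by TMM and tested, two-sided, with edgeR 4.0.16 (robust quasi-likelihood, R 4.3.3) and Benjamini-Hochberg adjustment. CPM uses TMM-scaled library sizes. TPM was computed from counts and annotated transcript lengths. Standard errors were derived from the F statistic. The procedure was tested on simulated data. Intervals and floors (3 counts over a group, 0.0577 CPM in knockout and 0.0595 CPM in het clones) cover counting error only. Sequences are from RefSeq; of 76 member windows, 34 begin at a GENCODE transcript start, and 33 of these open with the same bases.

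Genes named in full passed and averaged at least 5 CPM in the higher genotype, or were the 2 most abundant others of a family; Slit1, Slit3, Epha3, Robo2, Sema3d and Plxnb1 were described by clone after their values were seen, and Slit1 and Epha3 are among the genes that passed. From each list the 4 smallest adjusted p were named; 3 symbols were matched through RefSeq synonyms. Alternatives were DESeq2 1.42.0, limma-voom 3.58.1, RLE scaling, library totals, 2 filters, limma on log2 FPKM with pseudocounts of 1 and 0.1, a test against a fold of 1.5, the most abundant transcript, subtraction of the median of 40 neighbouring genes, and leaving out each clone.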

Additional observations from a re-analysis of the deposited data

How the results depend on the processing

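Slit1, Slit2, Ephb2, Neo1, Sema3f and Unc5b passed in the same direction under every alternative that kept them. Slit1 was not kept by the minimum of 1 CPM in 3 clones or on either FPKM scale. It met the count filter only through the knockout clones (60 counts, against 9 in het clones). Slit2 and Epha3 met it only through the het clones (Epha3 with 85 counts, against 2 in knockout clones). The 6 members higher in knockout clones became 3 in the test against a fold of 1.5, and 4 to 7 when a clone was left out. The 7 lower became 4 against a fold of 1.5, 11 with DESeq2, and 3 to 12 when a clone was left out. DESeq2 added Epha2, Ntn1, Ntn4, Robo1, Sema3a and Unc5c, and the neighbouring-gene median added Sema4g and Unc5c. Robo1 was also added by limma-voom (adjusted p 0.0357) and by limma on the FPKM scales (0.0121 and 0.0191). Of all genes, the 1771 higher became 326 and the 1814 lower 774 against a fold of 1.5; without 1 clone they ranged over 695 to 1769 and 871 to 2056. Of the member transcripts, 5 were higher (3 with library totals, 8 with DESeq2, 1 against a fold of 1.5, 0 to 4 without 1 clone) and 19 lower (3 with limma-voom, 1 to 17 without 1 clone). Of the co-receptor list, 4 were higher (1 against a fold of 1.5, 2 to 3 without 1 clone) and 6 lower (3 on either FPKM scale, where 22 were tested). Of the effectors, 7 were higher (12 with DESeq2, 0 against a fold of 1.5, 3 with the neighbouring-gene median, 1 to 9 without 1 clone) and 11 lower (5 against a fold of 1.5, 8 to 19 without 1 clone). The causes were not tested.

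Under the gene-level alternatives the sign changed for 11 of the 53 tested members, of which 0 had passed. Among the 38 members followed singly, signs changed for Ephb6 (-0.0044 with RLE scaling, -0.0049 with DESeq2, -0.0084 with a minimum of 1 CPM in 3 clones, -0.23 with the neighbouring-gene median, -0.41 to 0.26 without 1 clone, below 0 without A6 and, at -0.22, C6), Sema3e (0.0309 and 0.0459 on the FPKM scales, -0.49 to 0.35 without 1 clone, with 0.06 without A6), Sema6c (-0.60 to 0.0346 without 1 clone, 0.65 for its most abundant transcript), Plxna1 (-0.0017 to 0.21 without 1 clone), and the most abundant transcripts of Nrp2 (0.23) and Sema4b (0.10). Macf1 passed throughout. No paired analysis was possible because the clones carry no number or label that joins the genotypes. With 3 clones a genotype, members of a few CPM and those that vary between clones have wide errors, and a change that did not pass may still be present.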
